A study of Mus musculus with 2 samples.

Results

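The genes described here are 10 genes of the major histocompatibility complex (MHC) and of antigen presentation: B2m, H2-K1, H2-D1, Tap1, Tap2, Tapbp, Nlrc5, Ciita, H2-Aa and Cd74. They were taken by symbol, with no filter on level, although earlier results of these data were known when they were chosen. All 10 had values among the 43346 genes measured. The samples are 2 cultures of G1E, a male immortalized mouse line of strain C57BL/6J per the labels, whose total RNA was sequenced after removal of ribosomal RNA. Its label calls it a Gata1- erythroid progenitor, an immature red cell precursor without functional GATA1, the transcription factor of red cell maturation. The cultures are biological replicates 1 and 2 of a single untreated group, and no group to compare them with was analysed here. G1E is 1 line, derived from gene-targeted embryonic stem cells, so values describe that line and not erythroid progenitors at large.

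Class I molecules show peptides from inside the cell to cytotoxic T cells, and nearly every nucleated cell can make them. A class I molecule is a heavy chain, such as H2-K1 or H2-D1, joined to the invariant light chain B2m; Tap1 and Tap2 pump peptides into the endoplasmic reticulum, and Tapbp (tapasin) holds the empty molecule at that pump. Class II molecules, such as the one built on H2-Aa, are made mainly by B cells, dendritic cells and macrophages, where Cd74 (the invariant chain) escorts them. NLRC5 is the transactivator of class I genes and CIITA that of class II genes; both act through a shared promoter complex of RFX, CREB and NF-Y proteins.

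The 250 bases before the annotated start of 5 of these genes are given here because class I and class II promoters share elements while the levels below differ widely. All sequences are from RefSeq on build GRCm38.p6, 5′ to 3′ on the strand of the gene, and positions count back from the start, with -1 next to it. Capitals mark matches on either strand to a kappa B type motif (GGG and TT with any 2 bases between them, then any base and CC), the interferon-stimulated response element (a pair of GAAA with any 2 bases between them), its shorter form AANNGAAA that overlaps it, TGACG (the core of the X2 element) and CCAAT (the Y element when reversed). These motifs were chosen after the sequences had been read. The H2-K1 window is chr17:34000348-34000597 on the minus strand, the H2-D1 window chr17:35262844-35263093 on the plus strand, the B2m window chr2:122147437-122147686 on the plus strand, the Tap1 window chr17:34187306-34187555 on the plus strand and the H2-Aa window chr17:34287824-34288073 on the minus strand.
H2-K1: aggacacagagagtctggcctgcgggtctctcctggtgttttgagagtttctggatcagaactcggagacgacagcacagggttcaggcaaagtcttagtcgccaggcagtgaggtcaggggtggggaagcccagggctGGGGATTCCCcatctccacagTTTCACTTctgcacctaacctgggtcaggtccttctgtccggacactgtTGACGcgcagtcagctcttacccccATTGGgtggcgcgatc
H2-D1: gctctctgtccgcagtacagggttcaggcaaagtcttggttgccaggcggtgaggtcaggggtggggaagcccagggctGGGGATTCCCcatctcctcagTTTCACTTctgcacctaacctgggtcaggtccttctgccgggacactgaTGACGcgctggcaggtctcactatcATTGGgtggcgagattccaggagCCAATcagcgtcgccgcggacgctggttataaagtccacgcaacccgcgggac
B2m: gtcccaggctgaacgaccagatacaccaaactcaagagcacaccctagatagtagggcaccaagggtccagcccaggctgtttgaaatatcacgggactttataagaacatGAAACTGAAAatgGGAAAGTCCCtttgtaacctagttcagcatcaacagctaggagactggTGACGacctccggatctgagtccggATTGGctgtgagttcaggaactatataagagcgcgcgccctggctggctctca
Tap1: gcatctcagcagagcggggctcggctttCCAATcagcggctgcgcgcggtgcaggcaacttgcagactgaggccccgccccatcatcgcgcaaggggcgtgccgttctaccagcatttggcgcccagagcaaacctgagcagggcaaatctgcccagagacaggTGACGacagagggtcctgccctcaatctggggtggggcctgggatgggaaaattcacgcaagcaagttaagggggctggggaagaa
H2-Aa: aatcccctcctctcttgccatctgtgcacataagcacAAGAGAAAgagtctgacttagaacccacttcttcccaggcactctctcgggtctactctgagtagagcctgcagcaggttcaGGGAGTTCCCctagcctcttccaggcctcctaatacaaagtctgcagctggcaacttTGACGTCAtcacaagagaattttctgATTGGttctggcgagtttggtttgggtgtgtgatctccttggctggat

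H2-K1 and H2-D1 shared a run of 4 elements. In both, GGGGATTCCC was followed 21 bases later by TTTCACTT, 70 bases later by TGACG and 95 bases later by ATTGG. The H2-D1 window has a further CCAAT 118 bases after the start of the kappa B match, which the H2-K1 window shown does not reach; counted from the other H2-K1 start it stands at 119 bases. RefSeq lists a pair of starts for H2-K1, and the one shown is the farther upstream; the RefSeq start of H2-D1 lies inside the GENCODE gene, which begins at 35262730. The kappa B match began at -111 before H2-K1 and at -171 before H2-D1. The best local alignment of the pair of windows had 161 identical bases of 177, or 91%, with no gap. B2m held its kappa B match at -126 to -117 and the full response element at -139 to -130. TGACG and ATTGG stood 25 bases apart in H2-K1, H2-D1 and B2m and 26 bases apart in H2-Aa. Tap1 held TGACG at -86 and CCAAT at -222, without a match to the kappa B or interferon motifs in this window. The Tapbp window, which is not printed, held ATTGG at -248 and -165 and no match to the other motifs. Across 32851 RefSeq promoter windows of mouse, of 250 bases each, 4.11% held the kappa B motif, 2.98% the long and 21.3% the short interferon motif, 17.8% TGACG and 33.8% CCAAT. A match is a description of letters, not evidence that a factor is bound.

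The libraries held 58094631 expected counts on genes in replicate 1 and 55274368 in replicate 2. Levels are in TPM, a length-scaled share of all RNA that sums to the same total in every library. Protein-coding genes outside the mitochondrial genome took 18.0% and 17.0% of it, so a coding level rescaled to those genes alone is several times higher. A gene counts as detected at 1 TPM or more in both libraries, which 21.0% of all genes and 38.7% of the 21461 nuclear coding genes reached. Every count of detected genes in a list below is to be read beside these shares. Marker genes matched the label: all 10 erythroid and progenitor markers were detected, with a median level of 30.3 ± 0.682 TPM (SD of the 2 library medians). None of the 7 B cell, 7 T and natural killer cell, 10 dendritic cell and macrophage or 7 fibroblast and embryonic stem cell markers was. Gata1 itself, the gene named in the label, stood at 7.06 and 7.13 TPM in replicates 1 and 2, and a gene total does not show which part of it was altered. Intervals and limits from counts are taken within 1 library, so they cover counting error only and not the spread between cultures. The reads also carry no molecular identifiers. In a bulk library, little RNA in every cell and more RNA in a few cells cannot be told apart.

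Class I light chain, 1 heavy chain and, as whole genes, both subunits of the peptide pump were detected, and the class II genes were not. The coding transcripts of the pump alone did not reach 1 TPM in both libraries, with Tap1 at 0.74 and 1.17 TPM and Tap2 at 0.36 and 0.19 TPM. Of the 10 genes, 5 were detected, beside 21.0% of all genes and 38.7% of nuclear coding genes: B2m, H2-D1, Tapbp, Tap2 and Tap1. The 7 genes of the class I side gave 5 detected and a median level of 2.29 ± 0.283 TPM, and the 3 of the class II side gave 0 detected and a median of 0.005 ± 0.00707 TPM. The median level of all 10 was 0.88 ± 0.170 TPM, against 0.055 ± 0.0141 TPM over nuclear coding genes and 0.015 ± 0.00707 TPM over all genes. No test stands behind these list medians.

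**Figure D1:**
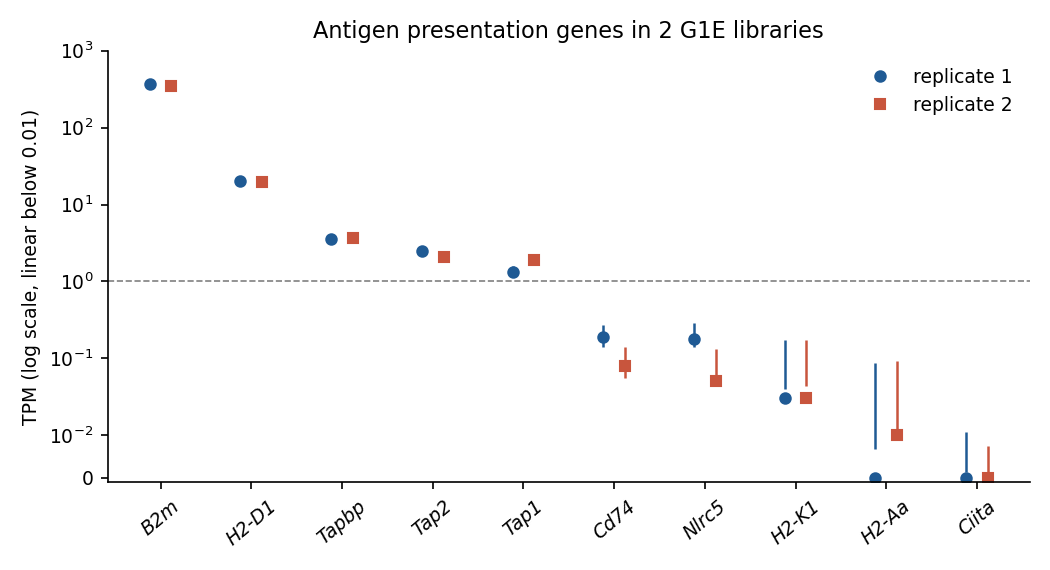
Level in TPM (log axis, linear below 0.01) of the 10 genes in replicate 1 (circles) and replicate 2 (squares), in order of mean level. Vertical lines are the authors' intervals within a library, which do not always hold the level plotted, and the dashed line is 1 TPM. B2m, H2-D1, Tapbp, Tap2 and Tap1 sit above the dashed line in both libraries and the other 5 genes below it.

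B2m (ENSMUSG00000060802.8, chromosome 2, 122147686 to 122153083, plus strand, mm10), the light chain, had a level of 371.68 TPM in replicate 1 and 352.08 TPM in replicate 2. That rests on 40642 and 40084 expected counts. Its mean of 361.88 ± 13.9 TPM (SD, n = 2) was 72nd of the 21461 nuclear coding genes, so it was among the most abundant mRNAs of the line. Rescaled to nuclear coding genes, its level was 2067 ± 10.5 TPM. The gene has 1 annotated transcript, of 860 nt, and every window of 50 nt in it is absent from the transcripts of other genes. Patl2 overlaps B2m on the opposite strand, and its 948 and 961 counts are small beside those of B2m.

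H2-D1 (ENSMUSG00000073411.7, chromosome 17, 35262730 to 35267499, plus strand), a classical class I heavy chain, had a level of 20.17 and 19.92 TPM in replicates 1 and 2. The expected counts were 5495.41 and 5774.51, and the mean level was 20.0 ± 0.177 TPM (SD, n = 2), 1546th among nuclear coding genes. H2-K1 (ENSMUSG00000061232.11, chromosome 17, 33996017 to 34000347, minus strand), the other classical heavy chain of this strain, had 3 and 4 expected counts and a level of 0.03 TPM in each library. The authors' interval for H2-K1 was 0.0398 to 0.174 TPM in replicate 1 and 0.0439 to 0.175 TPM in replicate 2. The level of 0.03 TPM lay below both intervals, and the posterior mean TPM, 0.1 in each library, lay inside them. Both libraries therefore held H2-D1 RNA well above 1 TPM and next to none counted as H2-K1.

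The pair differed by far more than the replicate spread. The log2 ratio of H2-K1 over H2-D1, with 1 TPM added to each, was -4.36 in replicate 1 and -4.34 in replicate 2, past a limit of 1.03 on this scale. That limit is 3 times the spread of a difference, with the spread taken as the pooled SD between libraries of detected genes at the level of H2-D1. In counts, H2-D1 exceeded H2-K1 by 1832 times in replicate 1 (exact 95% interval 626 to 8885) and by 1444 times in replicate 2 (564 to 5301), without correction for length. H2-K1 made up 0.0546% and 0.0692% of the counts on both genes. Promoter windows that align at 91% identity thus stood before genes at 0.03 TPM (H2-K1) and 20.0 TPM (H2-D1).

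How well reads can tell the heavy chains apart was checked on GENCODE release M21 transcripts. In the longest coding transcript of H2-K1, of 1619 nt, 91.2% of windows of 50 nt and 100% of windows of 100 nt occur in no other gene. For the 2102 nt coding transcript of H2-D1 those shares were 85.7% and 95.4%. The transcripts align with 1340 identical positions of 1515, or 88.4%. The posterior SD of the H2-D1 count was 0.77 and 1.61, at most 0.0279% of the count. That of H2-K1 was 0.18 and 0.13, or 5.94% and 3.23% of its far smaller posterior mean count. The deposited tables hold no read sequences, and whether the line's own alleles match the reference at these genes was not tested.

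The genes next to H2-K1 were not low as a block. Of the 12 coding genes nearest to it, 6 on each side, 9 were detected. On 1 side lie Rps18, a ribosomal protein gene at 289 ± 2.79 TPM, and Vps52 at 3.68 ± 0.226 TPM (SD, n = 2). On the other side lie Ring1, a Polycomb gene at 2.16 ± 0.177 TPM, H2-Ke6 at 7.28 ± 0.0990 TPM and Slc39a7 at 10.2 ± 0.672 TPM. B3galt4, Col11a2 and H2-Oa were not detected, at mean levels of 0.595, 0.2 and 0.01 TPM. Over the MHC region of chromosome 17, from the start of Tapbp at 33915899 to the end of H2-M2 at 37483552, 71 of 181 coding genes were detected, or 39.2%, beside 38.7% of all nuclear coding genes.

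**Figure D2:**
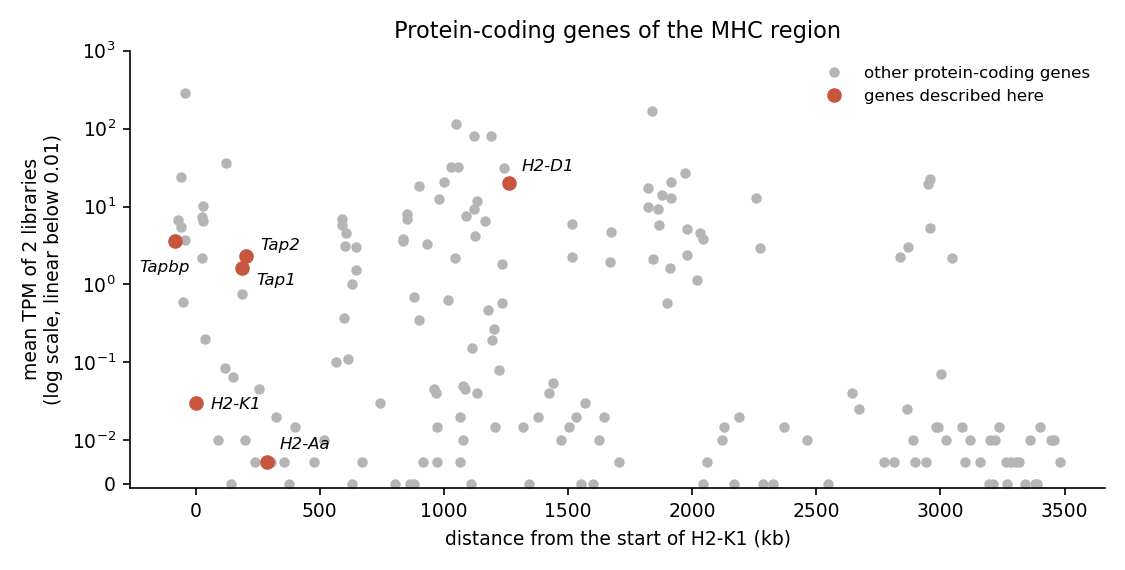
Mean level of both libraries in TPM (log axis, linear below 0.01) of the 181 coding genes of the MHC region against the distance of each gene's start from that of H2-K1, in kb. H2-D1 at 20.0 TPM lies between Ddx39b at 30.9 TPM and H2-Q1 at 0.015 TPM, and the H2-Q genes beyond it were not detected. H2-K1 at 0.03 TPM lies well below most of its neighbours, 9 of 12 of which were detected.

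Of 21 other class I and class I-like heavy chains, 4 (19.0%) were detected, beside 21.0% of all genes and 38.7% of nuclear coding genes. Their median level was 0.015 ± 0.0141 TPM. H2-T23 (Qa-1), which presents leader peptides to natural killer cell receptors, had 4.00 and 5.12 TPM in replicates 1 and 2. H2-T22, a ligand of some gamma delta T cells, had 3.71 and 3.96 TPM, and H2-K2, annotated as a pseudogene, had 1.09 and 1.81 TPM. Fcgrt, the neonatal Fc receptor, had 1 and 0 counts. H2-T22 shares much of its sequence with H2-T10: only 55.3% of its windows of 50 nt and 85.8% of those of 100 nt are its own, although the posterior SD of its count was only 0.391% and 0.327% of the count.

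Summed over 18 H2 heavy-chain genes, the level was 31.7 and 32.8 TPM in replicates 1 and 2. H2-D1 made up 63.6% and 60.8% of that sum. B2m exceeded the sum by 11.7 and 10.7 times and H2-D1 alone by 18.4 and 17.7 times. On the log2(TPM + 1) scale B2m stood 4.11 ± 0.04 above H2-D1 and 8.46 ± 0.06 above H2-K1 (SD, n = 2), both past the limit of 1.501 for genes at the level of B2m. Light-chain RNA was thus in excess over the summed H2 heavy-chain RNA in both libraries.

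Tap1 (ENSMUSG00000037321.13, chromosome 17, 34187553 to 34197225, plus strand), a subunit of the peptide pump, had a level of 1.33 and 1.92 TPM in replicates 1 and 2 on 543 and 485 counts. Its mean level was 1.63 ± 0.417 TPM (SD, n = 2), 7742nd among nuclear coding genes. Scaled for library size, the counts of replicate 2 over replicate 1 differed by -0.04 on the log2 scale, while the effective length by which they were divided was 2425 nt in replicate 1 and 1482 nt in replicate 2. Tap2 (ENSMUSG00000024339.8, 34203527 to 34216321, plus strand), the partner subunit, had 2.49 and 2.09 TPM on 1041 and 871 counts, a mean of 2.29 ± 0.283 TPM. Tap1 over Tap2 was -0.33 ± 0.35 on the log2(TPM + 1) scale, within the limit of 0.73. The order of the subunits depended on the measure: in counts Tap2 was higher in both libraries, whereas coding transcripts alone gave Tap1 0.74 and 1.17 TPM and Tap2 0.36 and 0.19 TPM. That limit uses the pooled SD of 0.17 of genes from 1 to 10 TPM.

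Tapbp (ENSMUSG00000024308.10, chromosome 17, 33915899 to 33929292, plus strand) had a level of 3.61 and 3.66 TPM in replicates 1 and 2 on 1123 and 1161 counts, a mean of 3.64 ± 0.0354 TPM (SD, n = 2). Tapbpl, a related peptide editor, stood lower at 0.33 and 0.20 TPM; the log2(TPM + 1) ratio of Tapbp over Tapbpl was 1.88 ± 0.12, past its limit of 0.73. Tapbp overlaps Zbtb22 on the same strand and Gm19412 on the opposite one, and 79.0% of the 50 nt windows of its main transcript are its own. Of the 9 genes of peptide loading and trimming in the endoplasmic reticulum, 8 were detected, with a median level of 17.5 ± 2.52 TPM, and Tapbpl was the exception. The chaperones led: Calr (calreticulin) had 176.30 and 144.02 TPM, Canx (calnexin) 103.09 and 68.19 TPM and Hspa5 (BiP) 67.82 and 58.25 TPM. Calr exceeded Tapbp by 5.11 ± 0.22 on the log2(TPM + 1) scale, past its limit of 1.501. These chaperones fold many proteins besides class I.

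For the proteasome that cuts class I peptides, RNA of the standard catalytic subunits exceeded that of their immunoproteasome counterparts. Which subunits the assembled proteasome held was not tested. Psmb7, Psmb6 and Psmb5 were all detected, at 58.0 ± 2.24, 45.3 ± 8.58 and 10.9 ± 0.912 TPM (SD, n = 2). Psmb10, Psmb9 and Psmb8 replace them in the immunoproteasome, which interferon gamma induces in other cells. Psmb10 had 2.14 and 2.29 TPM in replicates 1 and 2, Psmb9 had 0.66 and 0.83 TPM on 77 and 95 counts, and Psmb8 had 0.01 TPM in each library on 2 and 4 counts. Each stood below its standard counterpart by more than the spread: Psmb10 over Psmb7 was -4.20 ± 0.10, Psmb9 over Psmb6 was -4.72 ± 0.17 and Psmb8 over Psmb5 was -3.56 ± 0.11 on the log2(TPM + 1) scale, against limits of 1.03. The activator subunits Psme1 and Psme2 were detected at 39.4 ± 0.191 and 29.4 ± 0.969 TPM. Of these 5 immunoproteasome and activator genes 3 were detected, against all 3 of the standard subunits.

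Psmb8 and Psmb9 lie between and beside the pump genes on chromosome 17. Tap2 exceeded Psmb8 by 1.70 ± 0.12 on the log2(TPM + 1) scale, past the limit of 0.73. Tap1 over Psmb9 was 0.58 ± 0.13, within it. Psmb9 starts back to back with Tap1 on the opposite strand and overlaps it, so their reads cannot be told apart with certainty unless counting used the strand, and the strand setting of the counts is not stated in the labels or headers.

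Nlrc5 (ENSMUSG00000074151.8, chromosome 8, 94434356 to 94527272, plus strand), the class I transactivator, held 35 counts in each library. Its level was 0.18 TPM in replicate 1 and 0.05 TPM in replicate 2, a mean of 0.115 ± 0.0919 TPM (SD, n = 2), and the effective length behind it was 1140 nt in replicate 1 and 4018 nt in replicate 2. Ciita (ENSMUSG00000022504.9, chromosome 16, 10480059 to 10528418, plus strand), the class II transactivator, was listed at 0 TPM in both libraries on 4 and 2 counts, with intervals of the authors reaching to 0.0110 and 0.00738 TPM. In counts Nlrc5 stood above Ciita in both libraries, and with 1 TPM added both lie too low for the log2 limit to judge them. Dexi, on the opposite strand of Ciita, held 170 and 164 counts.

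RNA of the complex on which both transactivators assemble was detected, apart from that of 1 subunit. Of the 7 genes of the complex, 6 were detected, and the median level of the 7 was 7.04 ± 0.580 TPM. The NF-Y subunit Nfyb had 16.12 and 13.34 TPM in replicates 1 and 2, Creb1 had 14.98 and 12.71 TPM and the RFX subunit Rfxap had 10.16 and 10.13 TPM. Rfxank, another RFX subunit, had 0.57 and 0.86 TPM on 331 and 508 counts, below the threshold of detection. At a threshold of 0.5 TPM, with levels rescaled to nuclear coding genes, or in FPKM, all 7 genes counted as detected.

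The class II genes were below 1 TPM in both libraries. H2-Aa (ENSMUSG00000036594.10, chromosome 17, 34282744 to 34287823, minus strand), a class II alpha chain, had 0 counts in replicate 1 and 1 count in replicate 2, with levels of 0 and 0.01 TPM. With 0 counted, up to 3 counts remain possible, or 0.0294 TPM for H2-Aa in replicate 1. The authors' interval for H2-Aa in that library was wider, at 0.00679 to 0.0862 TPM. Cd74 (ENSMUSG00000024610.10, chromosome 18, 60803848 to 60812652, plus strand) had 33 and 16 counts and a level of 0.19 and 0.08 TPM in replicates 1 and 2, a mean of 0.135 ± 0.0778 TPM (SD, n = 2). That is above the level of 3 counts for Cd74, 0.0175 and 0.0149 TPM. At 0.19 TPM or less, no ratio on the log2(TPM + 1) scale can reach the limit of 0.73, so Cd74 against H2-Aa and H2-K1 against H2-Aa were not judged on it. In counts Cd74 stood above H2-K1, which had 3 and 4, in both libraries.

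None of the 9 other class II chains and exchange factors was detected, and their median level was 0.02 TPM in each library. The highest were the peptide exchange chains H2-DMa at 0.03 and 0.14 TPM and H2-DMb1 at 0.08 and 0.05 TPM, then the beta chain H2-Ab1 at 0.04 and 0.05 TPM; H2-DMb2 had 0 counts in both. Markers of the cells that normally carry class II were not detected either. The 7 B cell markers summed to 0.15 and 0.03 TPM. The 10 dendritic cell and macrophage markers summed to 1.51 and 1.29 TPM, most of it Cd68 at 1.13 and 0.87 TPM, with C1qa at 0 counts. The lysosomal enzymes that class II loading uses, which serve general protein breakdown too, were detected for 5 of 6 genes. Cathepsin D (Ctsd) had 236.19 and 255.06 TPM, Ctsb 9.61 and 9.51 TPM and the thiol reductase Ifi30 8.59 and 8.20 TPM, whereas Ctss, the cathepsin of antigen-presenting cells, had 0.12 and 0.08 TPM.

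Most receptors and kinases of interferon signalling were detected. Interferon-induced genes were detected at a share of 33.3%, near the 38.7% of nuclear coding genes. Of 15 receptor and signalling genes, 12 were detected, with a median level of 3.86 ± 0.636 TPM. The kinases Jak2 and Jak1 had means of 20.7 ± 2.96 and 14.5 ± 2.98 TPM (SD, n = 2). Irf2, Nfkb1 and Irf8 were not detected: Irf2 had 1.30 and 0.88 TPM in replicates 1 and 2, Nfkb1 had 0.69 and 0.61 TPM and Irf8 had 0.01 TPM in each. Of 21 interferon-induced genes with values, 7 were detected and the median level was 0.09 ± 0.0141 TPM. The highest were the GTPase Irgm1 at 15.14 and 14.17 TPM, Cd274 (PD-L1), an inhibitory ligand for T cells, at 7.56 and 6.46 TPM, and Usp18 at 2.30 and 2.67 TPM; Rsad2 was at 0.01 TPM in each library. At a threshold of 5 TPM, 6 of the 15 receptor and signalling genes and 2 of the 21 interferon-induced genes were detected.

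**Figure D3:**
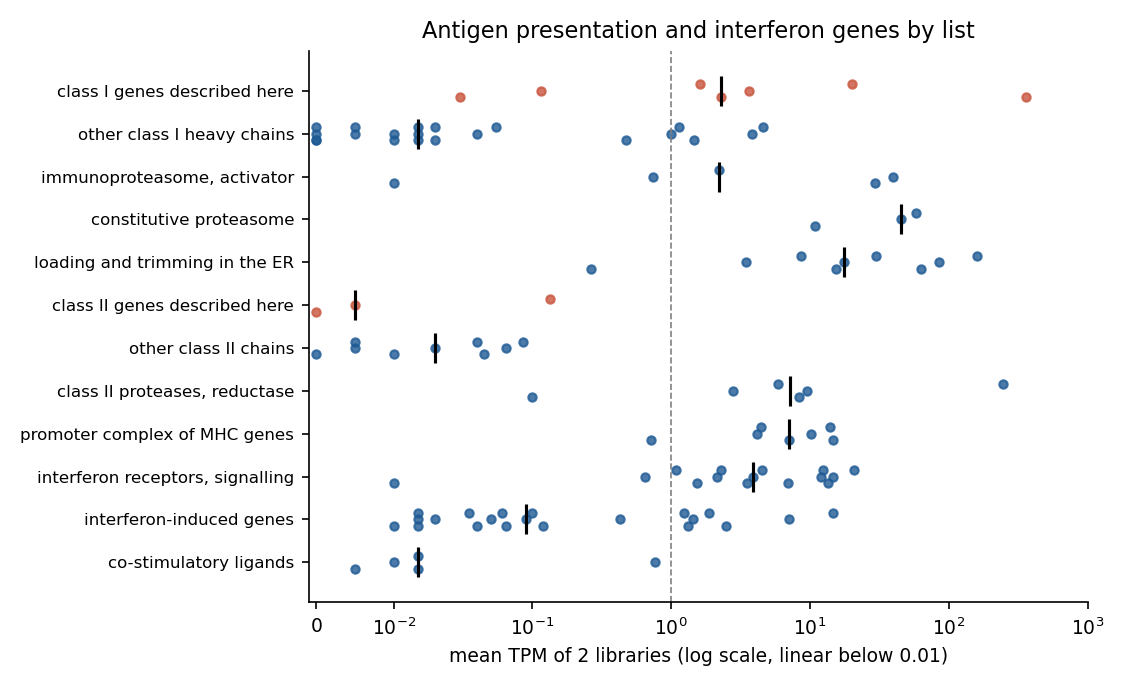
Mean level of both libraries in TPM (log axis, linear below 0.01) of each gene in 12 lists, with the 10 genes described here in red, the other genes in blue, a black bar at each list's median and a dashed line at 1 TPM. The constitutive proteasome (median 45.3 TPM) and endoplasmic reticulum (17.5 TPM) lists lie to the right of the line, and the class II lists (0.005 and 0.02 TPM) lie to the left of it.

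In the order of mean level, 4 of the 9 steps between neighbours exceeded the spread, meaning that neither the libraries' ranges nor the authors' intervals overlapped. These were B2m above H2-D1, H2-D1 above Tapbp, Tapbp above Tap2, and Tap1 above Cd74. Tap2 and Tap1, Cd74 and Nlrc5, Nlrc5 and H2-K1, H2-K1 and H2-Aa, and H2-Aa and Ciita were not apart by this rule.

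In counts, the libraries repeated each other within 2-fold for the genes that could be compared. The 7 genes whose summed count reached 10 were compared by a two-sided exact binomial test with Benjamini-Hochberg adjustment over 18409 genes, and a call needed 2-fold as well. None of the 7 was called, against 13.9% of all genes tested. By p alone, 5 of the 7 had an unadjusted p below 0.05 and 3 an adjusted p below it. Replicate 2 over replicate 1 was 0.10 on the log2 scale for B2m (exact test, adjusted p = 3.41e-23), 0.20 for H2-D1 (adjusted p = 6.90e-12) and 0.17 for Tapbp (adjusted p = 0.0120). The largest difference, -0.90 for Cd74, rested on 33 and 16 counts (exact test, adjusted p = 0.0849). The test knows counting error only and compares these 2 libraries.

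Transcript tables divide each gene's level among its annotated transcripts. The leading transcript was the same in both libraries for 4 of the 5 detected genes. For H2-D1 it was the coding transcript of 2102 nt, with 80.99% and 86.40% of the gene's TPM in replicates 1 and 2, and a retained-intron transcript of 716 nt held 15.12% and 7.51%. For Tapbp it was the coding transcript of 2894 nt at 62.82% and 63.04%. Its retained-intron transcript of 614 nt held 26.82% and 26.41%, while another of 718 nt held 10.36% and 0.33% and a processed transcript of 649 nt 0% and 10.22%. So the coding share of Tapbp repeated closely, while the 718 nt transcript rested on 31.91 and 1.09 counts.

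Tap2 differed from these, as a retained-intron transcript of 2561 nt led with 85.63% and 90.81% of its TPM, and the coding transcript of 3442 nt held 14.37% and 9.19%. Only 10.4% of the 100 nt windows of the 2561 nt transcript are absent from the coding one, and 34% the other way round. Most windows of each transcript thus occur in both and do not tell them apart. For Tap1 the leader differed between libraries: in replicates 1 and 2 the coding transcript of 2953 nt held 40.69% and 22.08%, and a retained-intron transcript of 757 nt 16.15% and 27.96%. A coding transcript of 587 nt had 0% and 27.55%, one of 2614 nt had 14.78% and 11.27% and a retained-intron transcript of 3081 nt 14.29% and 5.40%. All coding transcripts of Tap1 together held 55.47% and 60.9%. Total RNA holds unspliced RNA too, and its part in the retained-intron shares was not tested.

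**Figure D4:**
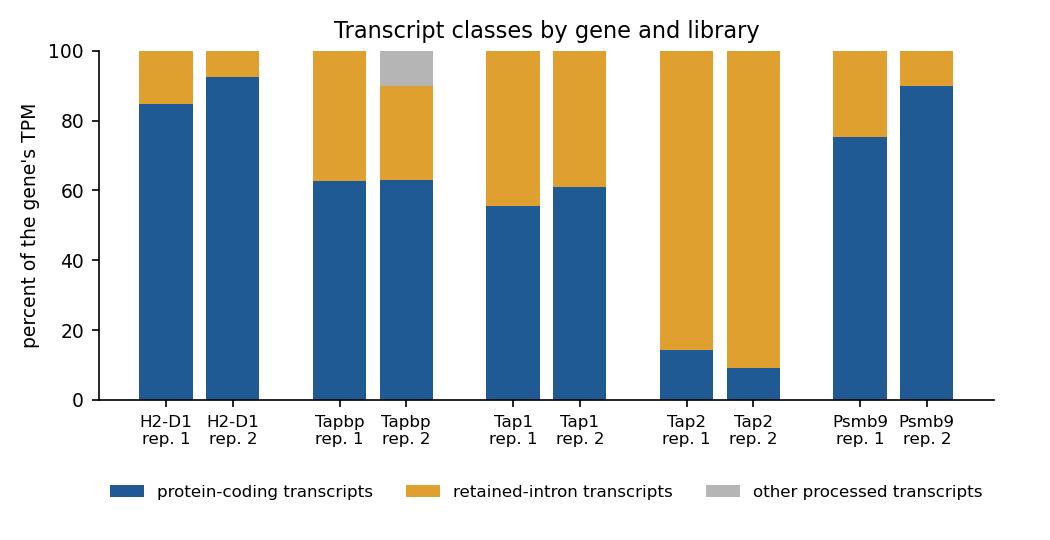
Percent of each gene's TPM in coding (blue), retained-intron (orange) and other processed (grey) transcripts, per library, for H2-D1, Tapbp, Tap1, Tap2 and Psmb9. Coding transcripts took most of H2-D1 in both libraries but only 14.37% and 9.19% of Tap2.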

How the data were processed

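Total RNA of 2 cultures of the mouse line G1E was prepared with a ScriptSeq kit from 100 ng of RNA, with a size range of 200 to 1000 nt, per the labels. The authors deposited 1 gene table and 1 transcript table per library, without pooling. Per the file headers these give an expected count (estimated reads, not always whole), TPM and FPKM (counts per effective length, scaled to all RNA and to library reads), posterior means, the posterior SD of the count, a TPM interval of unstated level and, for transcripts, a percent of the gene. Deposited read-me texts name mm10 and GENCODE release M4. Not given in the sources used here: aligner, quantifier and the strand used for counting.

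GENCODE release M21, on the same build, supplied symbols, gene types and coordinates, and matched 42462 of 43346 genes; RefSeq supplied promoter windows, and 6 of the 10 genes had one. Means are over n = 2 libraries. Detection was 1 TPM or more in both. Gene pairs used log2(TPM + 1), with a limit of 3 times the square root of 2 times the pooled SD of detected genes by level bin. Genes below 1 TPM took the SD of the bin from 1 to 10 TPM. Expected counts were rounded for the exact binomial test, with TMM factors from edgeR 4.0.16, or size factors from DESeq2 1.42.0 as an alternative, in R 4.3.3. The test was tested on simulated data. An exact permutation or sign test across 2 libraries of 1 group cannot reach 0.05, so none is given. Other steps used Python 3.11.15, numpy 2.4.6, scipy 1.17.1, pandas 2.3.3, Biopython 1.88 and matplotlib 3.10.9.

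The 10 genes, the lists (153 genes, 152 with values; Gbp6 had none) and the 14 pairs were chosen with earlier results of these data known. From each list the text names the 3 genes with the highest mean TPM, the lowest, the smaller side of the detection threshold where it has 3 genes or fewer, and all genes of the pairs, apart from genes that are not reported here. It names transcripts of detected genes that lead or hold 10% or more. Neighbours of H2-K1 were chosen by position, and those named with values after these were seen.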

Additional observations from a re-analysis of the deposited data

How the results depend on the processing

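Under 5 TPM as the threshold, 2 of the 10 genes were detected in place of 5. Of the 101 genes of the 10 pathway lists, 28 were, in place of 48. At 0.5 TPM the counts were 5 and 54, and every other alternative left 5 of the 10 detected. The pathway count was 57 with levels rescaled to nuclear coding genes, 56 in FPKM and 48 to 50 under the remaining alternatives. Without length correction 8 of 9 neighbours in the order were apart in place of 4, judged by the libraries' ranges alone because counts carry no interval of the authors, and the order of 2 neighbouring pairs turned round, with Nlrc5 above Cd74 and Ciita above H2-Aa. There, Tap1 over Psmb9 passed the limit, at 2.00 on the log2 scale, and B2m over H2-D1 was 2.83 in place of 4.11. Posterior mean TPM put H2-K1 at 0.1, H2-Aa at 0.045 and Ciita at 0.005 TPM, all still undetected. Calls between libraries ranged from 2496 to 3137, beside 2561, with 0 of the genes described here called in any of these. No gene pair ratio past its limit changed sign. No paired analysis was possible because there is 1 group. Depth limits the undetected genes most: H2-Aa, H2-K1 and Ciita rest on 0 to 4 counts a library, where no ratio among them can be read.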

Other observations

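The 5 ligands that give T cells a second signal were not detected, with a median level of 0.015 TPM. Cd80 was the highest, at 0.80 and 0.74 TPM in replicates 1 and 2 on 202 and 191 counts, while Cd86 had 2 and 1 counts, Icosl 10 and 6 and Cd40 3 and 0. Cd80 counted as detected, as 1 of the 5, at a threshold of 0.5 TPM, with levels rescaled to nuclear coding genes, or in FPKM.

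The highest coding genes of the MHC region were not genes of antigen presentation, and these were named after their values had been seen. After Rps18, they were the tubulin gene Tubb5 at 168 ± 15.2 TPM, the chloride channel gene Clic1 at 115 ± 15.3 TPM, the leukocyte gene Lst1 at 81.5 ± 12.9 TPM and the casein kinase subunit Csnk2b at 80.1 ± 7.25 TPM (SD, n = 2).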
